A study of Mus musculus with 9 samples.

Results

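The regions described here are sites of bidirectional transcription in mouse embryonic stem cells that lie far from any annotated gene. A region was counted as far when the centre of its 600 bp window lay outside every protein-coding gene, lncRNA gene and transcribed pseudogene and more than 50 kb from the end of any of them. Of 174289 regions, 17052 (9.78%) met the rule. The rule uses position alone, and no count entered it.

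The measurements come from PRO-seq, a nuclear run-on assay in which engaged RNA polymerases add a labelled nucleotide, so that reads mark where transcription is under way rather than where RNA has built up. All 9 libraries came from embryonic stem cells labelled Firre KO with an inducible Firre transgene, where Firre names a long non-coding RNA that stays in the nucleus and whose gene is on the X chromosome. The groups were cells without doxycycline (0 min) and cells at 15 and 30 min of 1 ng/μL doxycycline, with 3 libraries each, named here by group and the replicate number in their titles. Every group carried the knockout and the transgene, and the labels give neither the transgene's promoter nor the number of clones. No library had doxycycline without the transgene, so the drug and the transgene cannot be told apart. Separate cultures are not named in the labels for the 3 libraries of each group, so p-values measure only the spread between these libraries.

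Active enhancers are commonly transcribed in both directions from a nucleosome-free centre, which gives short unstable RNAs that run-on assays capture well. Gene deserts, long stretches with few genes, often hold such enhancers of developmental genes, some of which act over large distances. A transcribed site far from genes can also be the start of an unannotated RNA or lie in a repeat, and the counts do not separate these.

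Reads counted in all regions ranged from 3813365 to 5980366 per library, and those in far regions from 135356 to 262365. These are counts inside the regions, not the sequenced depth. Drosophila nuclei were added before the run-on, per the labels. Their counts were not used here, so each change is relative to the other mouse regions. Of 8 stem cell markers 5 had a region at a gene end, and all 5 had reads in every library, with 254 to 343 CPM (the usual depth-scaled count, on which 3 counts equal 0.5 to 0.787 in these libraries) for Sox2 and 257 to 352 CPM for Nanog. Of 21 endoderm, mesoderm, neuroectoderm, trophectoderm and fibroblast markers 12 had such a region, and 11 of these lay between 0 and 9.18 CPM. Library 3 of 15 min stood apart from the other 8 on the second principal component of all tested regions, which held 13.9% of the variance.

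The median distance from a far region to the nearest gene was 116 kb (quartiles 71.4 and 238 kb). The distance was 50 to 100 kb for 7383 (43.3%), 100 to 200 kb for 4546 (26.7%), 200 to 500 kb for 3837 (22.5%) and over 500 kb for 1286 (7.54%). The nearest gene was a lncRNA gene for 8684 far regions (50.9%), a protein-coding gene for 8052 (47.2%) and a transcribed pseudogene for 316 (1.85%), with 2384 distinct genes in all. Annotated genes of other types, such as untranscribed pseudogenes and immunoglobulin segments, were not used by the rule. Such a gene lay within 50 kb of 6284 far regions (36.9%), and 512 far regions were centred inside one. Just inside the limit, 271 far regions within 51 kb of a gene had a median mean count of 2.22. Just outside it, 260 regions beyond 49 kb had 2.17.

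The X chromosome held the most far regions, 1916 or 21.7% of its 8812 regions. On the Y chromosome 174 of 338 regions (51.5%) were far. Among the autosomes the share ran from 2.04% on chromosome 17, where the table holds 1128 regions and 23 were far, to 13.1% on chromosome 3. Chromosome 17 is not comparable with the others, which hold 4794 to 14263 regions each. Its far regions had a median mean count of 35.1, against 2 to 3.94 on the other autosomes. The next lowest share was 5.13% on chromosome 7. Most far regions had another region nearby. Only 574 (3.37%) had no other region within 12 kb, and 5901 (34.6%) overlapped another window, so neighbouring windows can share reads.

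Most far regions held few counted reads. Their median mean count over the 9 libraries was 2.33, against 2.56 for near intergenic regions (outside genes and 1 to 50 kb from an end), 2.78 for regions inside genes and 16.6 for regions at gene ends (within 1 kb). A mean under 2 was found for 7661 far regions (44.9%), and 195 had no count in any library. Reads were concentrated at the other end of the range. There 370 far regions (2.17%) had a mean of 100 or more and held 39.6% of the far reads. The top 100 held 21% and the top 1000 held 60.4%. At gene ends 23.1% of regions reached that mean.

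One far window held a sequence that the reference tables give. The window bidir_103393, at chr3:118433591-118434190 (mm10) and 64.4 kb from the lncRNA gene Gm26871, covers the hairpin gene Mir137, a microRNA gene that the rule does not count as a gene. Its mature sequences are shown because no other far window could be given by its letters, in RefSeq's GRCm38.p6 and on the plus strand, with the seed (bases 2 to 8) in capitals.
mmu-miR-137-5p: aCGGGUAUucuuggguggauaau
mmu-miR-137-3p: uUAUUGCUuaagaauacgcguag
The window had 5, 3 and 0 counts in libraries 1 to 3 at 0 min, 2, 3 and 1 at 15 min and 4, 3 and 4 at 30 min, 25 in all. It was too low to be tested, and no change was detectable at this depth.

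Doxycycline was followed by a larger share of reads in far regions. At 0 min the share of counted reads was 3.62%, 3.86% and 3.55% in libraries 1 to 3. At 15 min it was 4.39%, 4.63% and 4.11%, and at 30 min 4.04%, 4.13% and 4.0%. Every library at 15 and 30 min lay above every library at 0 min, while the ranges of 15 and 30 min overlapped through 15 min library 3.

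The mean share was 3.68% ± 0.164 at 0 min, 4.38% ± 0.259 at 15 min and 4.06% ± 0.0632 at 30 min (SD, n = 3 each). This was a log2 change of 0.25 at 15 min and 0.14 at 30 min. The exact permutation test of the F statistic over the 3 times gave p = 0.00714, where 0.00357 is the smallest p that the 1680 arrangements allow. A pair of times alone, 3 libraries against 3, cannot go below 0.10 and were not tested singly. The mean share of near intergenic regions also rose, from 20.11% at 0 min to 22.11% and 21.82% (exact permutation p = 0.0929). That of regions at gene ends fell from 47.7% to 44.96% and 45.2% (exact permutation p = 0.157). Regions inside genes held 28.51%, 28.55% and 28.92% (exact permutation p = 0.657).

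**Figure D1:**
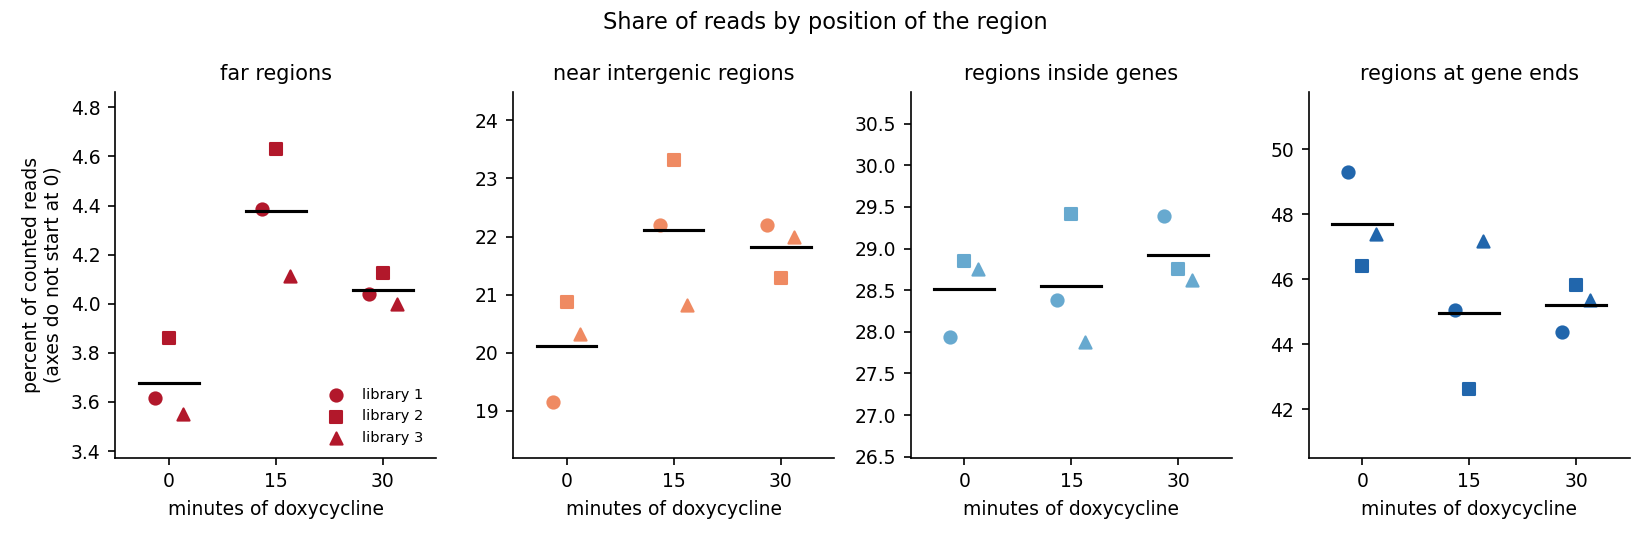
Percent of counted reads (y) in each class of region against minutes of doxycycline (x), with 1 point per library and a bar at the mean of 3. The far share rose from between 3.55% and 3.86% at 0 min to between 4.11% and 4.63% at 15 min, and the axes do not start at 0.

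The rise of the far share was set against 3 other classes of region within each library, which needs no scaling between libraries. Against regions inside genes the log2 ratio of far reads was -2.95, -2.90 and -3.02 at 0 min, -2.69, -2.67 and -2.76 at 15 min, and -2.86, -2.80 and -2.84 at 30 min. The 3 times did not overlap. The ratio was 0.25 higher at 15 min and 0.12 higher at 30 min than at 0 min (exact permutation p = 0.00357, 0.0107 adjusted over the 3 ratios).

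Against regions at gene ends the ratio was -3.77, -3.59 and -3.74 at 0 min, -3.36, -3.20 and -3.52 at 15 min, and -3.46, -3.47 and -3.50 at 30 min. It was 0.34 higher at 15 min and 0.22 higher at 30 min (exact permutation p = 0.0143, 0.0214 adjusted). Without 15 min library 2 the difference was 0.258 and the exact permutation p 0.0643.

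Against near intergenic regions the ratio was -2.40, -2.44 and -2.52 at 0 min, -2.34, -2.33 and -2.34 at 15 min, and -2.46, -2.37 and -2.46 at 30 min. The 15 min libraries were all above the others, by 0.12 over 0 min in the mean, but the test over the 3 times missed the threshold (exact permutation p = 0.075, also 0.075 adjusted). It passed without 0 min library 1 (exact permutation p = 0.0429) and without 30 min library 2 (p = 0.0357). At 30 min the mean ratio was 0.02 above that of 0 min.

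Because far regions have lower counts than the other classes, the comparison was repeated within 7 bins of the mean count over the 9 libraries. The far share rose in each bin at 15 min, by a log2 change of 0.46 for a mean under 2, 0.42 for 2 to 5, 0.41 for 5 to 10 and 0.37 for 10 to 20. In the higher bins the change was 0.28 for 20 to 50, 0.22 for 50 to 100 and 0.16 for 100 and over. At 30 min it went from 0.41 in the lowest bin to 0.07 in the highest. A larger rise at low counts was also seen in near intergenic regions, with 0.30 in the lowest bin and 0.13 in the highest at 15 min. Regions inside genes had 0.18 in the lowest bin, -0.05 at 50 to 100 and 0.003 in the highest. Regions at gene ends did not share this pattern, with 0.02 in the lowest bin, -0.27 at 20 to 50 and -0.05 in the highest.

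The bins differed in how closely the libraries agreed. For a mean under 2 the share was 0.105%, 0.122% and 0.0995% at 0 min, 0.154%, 0.172% and 0.127% at 15 min, and 0.152%, 0.139% and 0.143% at 30 min. All libraries after doxycycline were above all at 0 min, but 15 min library 3 was close to 0 min library 2. In the bin of 20 to 50 the share was 0.581%, 0.618% and 0.546% at 0 min and 0.720%, 0.741% and 0.656% at 15 min. It was 0.644%, 0.642% and 0.631% at 30 min (exact permutation p = 0.00357).

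**Figure D2:**
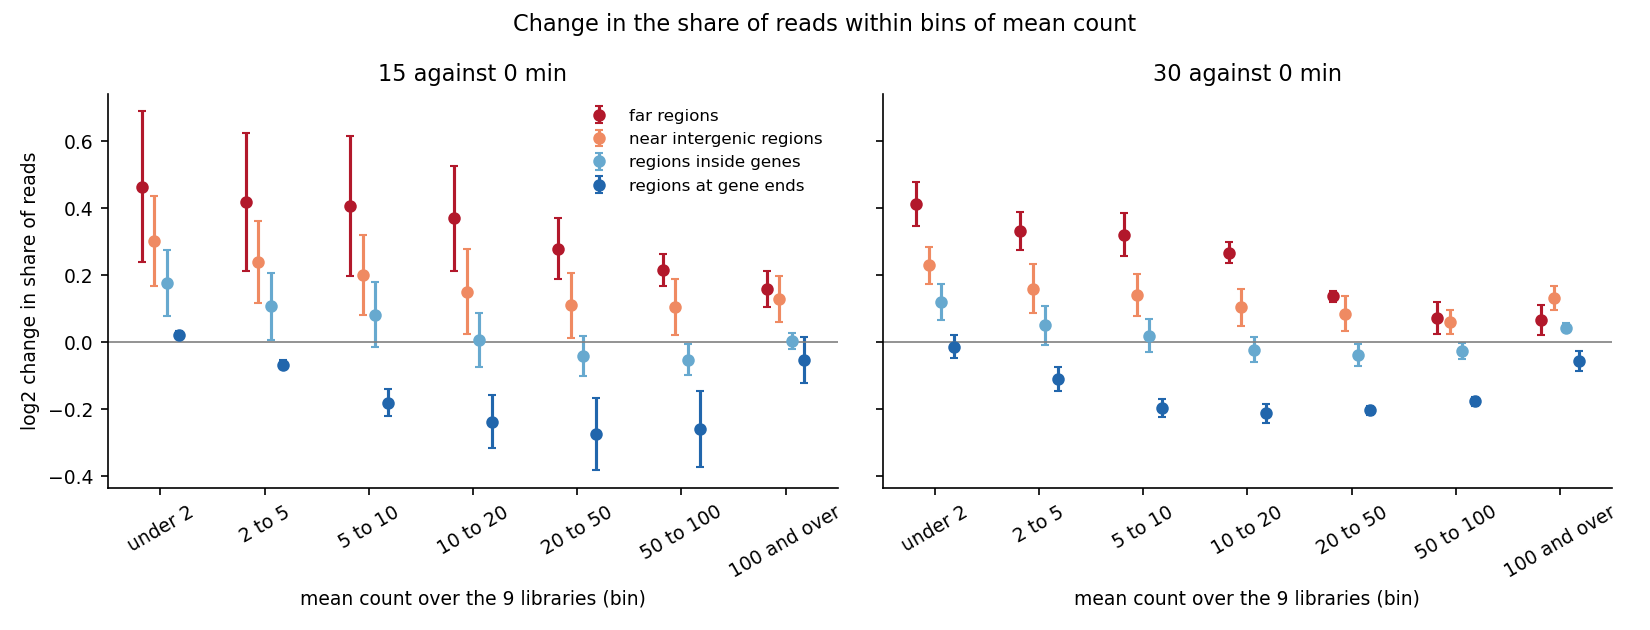
Log2 change in the share of reads (y) within bins of mean count (x) for 4 classes of region, at 15 and 30 min against the mean of 0 min. Points are means of 3 libraries and bars the SD of those 3, without the spread at 0 min. Far regions lie highest in all 7 bins at 15 min, from 0.46 in the lowest bin to 0.16 in the highest.

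Within a bin, far reads gained on the other class in 21 of 21 ratios at 15 min and in 20 of 21 at 30 min, the exception being far over near regions at a mean of 100 and over (-0.06). The test over the 3 times passed in 11 of 21 ratios after adjustment over all 21. These were 5 of 7 bins against regions inside genes, 4 of 7 against gene ends and 2 of 7 against near intergenic regions.

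The 2 bins that separated far from near intergenic regions were those of 10 to 20 and of 20 to 50. In the first the log2 ratio was -2.05, -1.95 and -2.11 at 0 min, -1.82, -1.78 and -1.85 at 15 min, and -1.91, -1.84 and -1.88 at 30 min (exact permutation p = 0.00714, 0.03 adjusted). In the second it rose by 0.17 at 15 min and 0.05 at 30 min (exact permutation p = 0.0143, 0.0333 adjusted). At a mean of 100 and over the difference at 15 min was 0.03 (exact permutation p = 0.214 before and after adjustment). These counts rest on single libraries. Of the 21 ratios, 0 passed without 0 min library 1 or 3, 15 min library 2, or 30 min library 2 or 3, and 4 passed without 15 min library 1 or 30 min library 1.

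Distance beyond the limit was examined next, with all far regions of a distance range summed. The log2 change at 15 min was 0.22 at 50 to 100 kb, 0.25 at 100 to 200 kb, 0.30 at 200 to 500 kb and 0.32 over 500 kb. At 30 min it was 0.16, 0.12, 0.14 and 0.14. For near intergenic regions it was 0.09 at 1 to 5 kb, 0.17 at 5 to 15 kb and 0.15 at 15 to 50 kb at 15 min.

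The farthest regions, over 500 kb from a gene, had their mean share rise from 0.244% ± 0.0145 to 0.305% ± 0.0194 at 15 min and stood at 0.269% ± 0.00766 at 30 min (SD, n = 3 each). Set against far regions at 50 to 100 kb in the same library, their log2 ratio was -2.69, -2.76 and -2.84 at 0 min, -2.62, -2.67 and -2.68 at 15 min, and -2.79, -2.73 and -2.80 at 30 min. Every 15 min library was narrowly above every 0 min library, the 30 min range overlapped that of 0 min, and the exact permutation test gave p = 0.0893 (0.2 adjusted over 6 such splits). The difference at 15 min was 0.103. It was 0.14 without 0 min library 1 (unadjusted exact permutation p = 0.0286) and 0.0641 without 0 min library 3 (p = 0.0357), so the value depends on these libraries. None of the 3 distance ratios passed after adjustment.

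**Figure D3:**
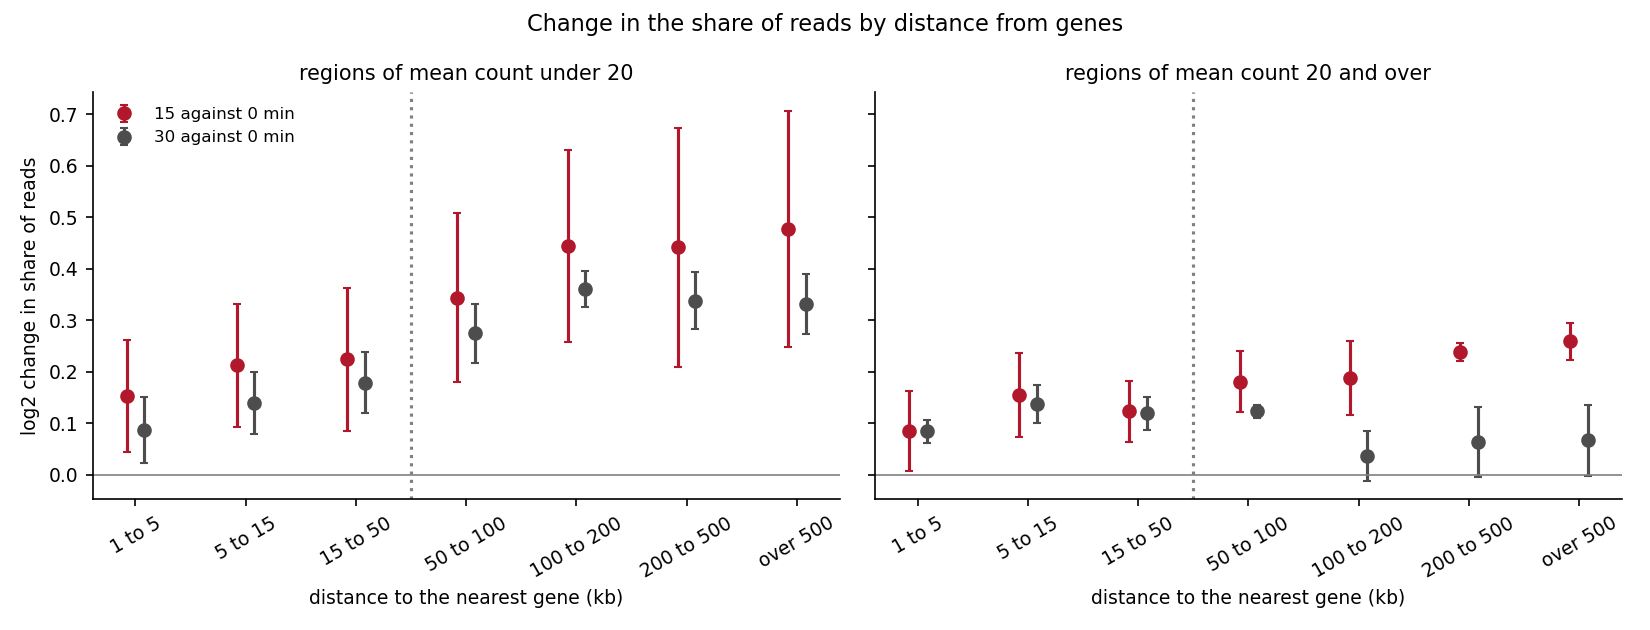
Log2 change in the share of reads (y) by distance from the nearest gene (x) for regions of mean count under 20 and of 20 and over. Points are means of 3 libraries against the mean of 0 min, bars the SD of those 3, and the dotted line is the limit of 50 kb. Among regions of mean 20 and over the change at 15 min was 0.18 at 50 to 100 kb and 0.26 over 500 kb.

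Other splits of the far regions also missed the threshold after adjustment. The far share on the X chromosome rose by 0.24 at 15 min against 0.25 on the autosomes. The X over autosome ratio changed by -0.02 (exact permutation p = 0.489, adjusted 0.489). X carries the endogenous Firre gene, labelled KO in all libraries, and the position of the transgene was not used in this split. On the Y chromosome the change was 0.05. The ratio to the autosomes moved by -0.21 (exact permutation p = 0.164, adjusted 0.214), and by -0.0763 among windows that overlap no other. Regions called at a width of 1000 bp and over in the list of variable width changed by 0.28 at 15 min and those under 300 bp by 0.22 (exact permutation p for the ratio 0.1, adjusted 0.2).

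The rise was spread over the genome. The far share was higher at 15 min than at 0 min on 21 of 21 chromosomes, and on 19 of them every 15 min library was above every 0 min library. At 30 min it was higher on 21 and separated on 16. It was lower at 30 than at 15 min on 20 of 21, the exception being Y. Chromosome 1, with 1830 far regions, went from 0.348% ± 0.0213 to 0.437% ± 0.0362 and then 0.397% ± 0.00511 (SD, n = 3 each). Chromosome 4 changed little, from 0.284% ± 0.0178 to 0.315% ± 0.0327 and 0.296% ± 0.00244, a change within the spread (exact permutation p = 0.293 over the 3 times).

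Single regions were tested on the whole table with edgeR's quasi-likelihood test. Its filter on low counts kept 54299 of 174289 regions and 3871 (22.7%) of the far ones, so calls speak only for the better covered members. At a mean of 10 and over nearly all far regions were tested (1302 of 1304 for 10 to 20, and all above).

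At 15 min 195 far regions were called higher (5.04% of those tested, where 4.29% of all tested regions were called higher) and 8 lower (0.207%, against 3.96% of all). In either direction 8.25% of all tested regions were called. The share called higher was near that of all regions, and the share called lower was below it. The median log2 change was 0.33 over the tested far regions and 0.02 over all tested regions, and 3136 far regions (81%) had a change above 0. Near intergenic regions had a median of 0.17, with 7.14% called higher and 1.7% lower.

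Of the 195, 124 rose by more than 2-fold. In 110 with a mean of 20 or more the libraries of 0 and 15 min did not overlap in CPM. Separation is likely among regions already called, so it adds no support to the calls. Neither count was taken over all tested regions, so neither sets far regions apart. The count of 195 moved to 63 and 107 without 0 min library 1 or 3, and to 70 and 57 without 15 min library 1 or 2. The count of 8 lower moved to 5 without 0 min library 3, to 2 without 15 min library 1 and to 5 without 15 min library 2. With scaling factors taken from gene ends alone, which moves the median of all tested regions from 0.02 to 0.19, the calls were 405 higher and 3 lower and the far median was 0.49. The near intergenic median moved as well, from 0.17 to 0.33. The share of all tested regions called with this scaling was not computed, so the 405 cannot be set against 4.29%.

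At 30 min 47 far regions were called higher (1.21%, where 1.24% of all tested regions were called higher) and 2 lower (0.0517%, against 0.497%), with 1.74% of all called either way. The median log2 change was 0.16, against 0 over all tested regions. Leaving out 0 min library 1 or 3 gave 2 and 19 such calls, leaving out library 1, 2 or 3 of 30 min gave 10, 12 and 9, and leaving out 15 min library 3 gave 73. The 2 lower became 0 without 0 min library 1 or 30 min library 1 or 3, and 1 without 15 min library 1 or 30 min library 2. The comparisons of 15 and 30 min share the 0 min libraries.

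From 15 to 30 min 1 far region was called higher and 1 lower (0.0258% each, where 0.214% of all tested regions were called higher, 0.49% lower and 0.704% either way). The median change was -0.15, against -0.01 over all tested regions, and 1172 of 3871 (30.3%) lay above 0. The region called higher was no longer called when any library of 15 or 30 min was left out. The count lower was 0 without 15 min library 1 or 2 or any library of 30 min, and 6 without 15 min library 3.

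The share of far regions called higher at 15 min was 5.15% at a mean of 10 to 20, 4.96% at 20 to 50, 6.56% at 50 to 100 and 7.57% at 100 and over. For near intergenic regions it was 3.41%, 7.32%, 11.2% and 18% in the same bins, so far regions had the larger share only in the lowest of the 4. The share called lower was 0.541% of far regions at a mean of 100 and over (2 of 370), and 4.66% of near intergenic regions. In that bin the median change was 0.20 for far and 0.15 for near intergenic regions. These shares were not tested against each other.

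**Figure D4:**
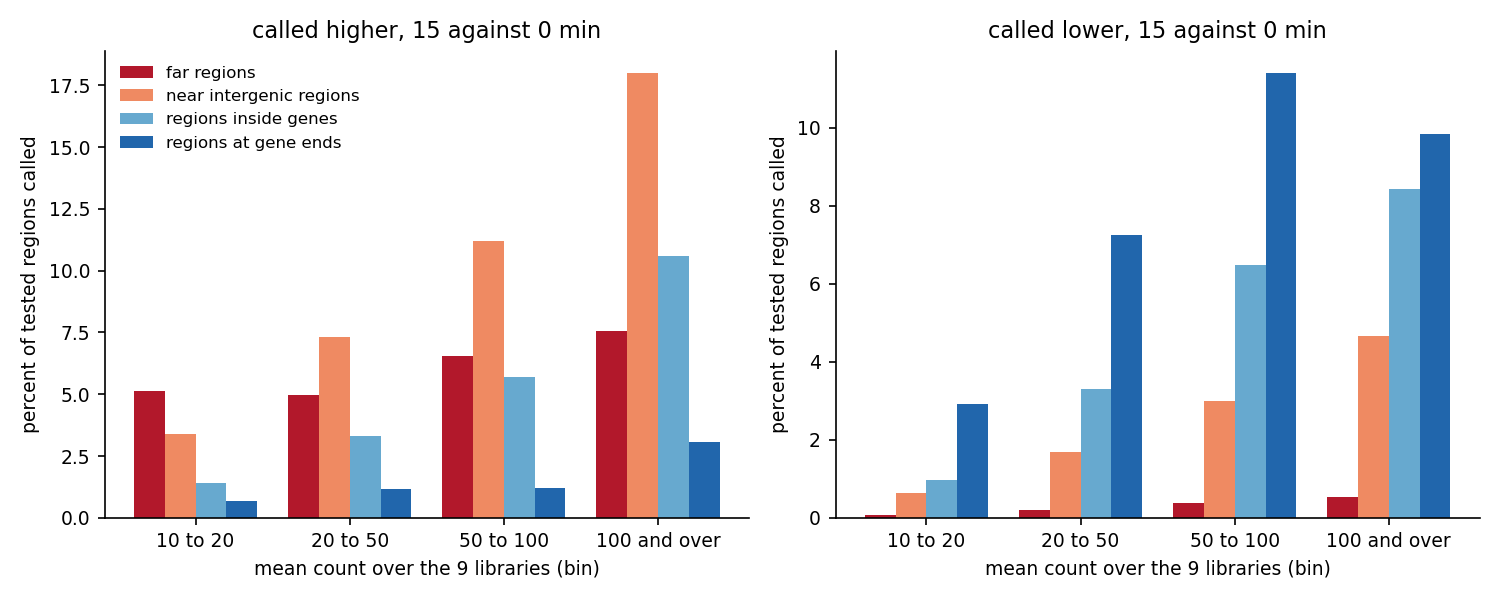
Percent of tested regions called higher and lower at 15 against 0 min (y) in bins of mean count (x), by class, from the edgeR test at an adjusted p of 0.05. Of far regions 4.96% to 7.57% were called higher and at most 0.541% lower in the 4 bins.

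The members named for the largest rises at 15 min were regions of modest level. A ranking by log2 change tends to favour such regions, so their level is partly an outcome of the rule. Named regions follow a fixed rule: the largest called changes with a mean of at least 20 counts and no overlap between groups in CPM. Region bidir_17629 (chr10:46740888-46741487), 271 kb from the lncRNA gene Gm35552 and 1029 kb from Hace1, a ubiquitin ligase gene, had 1.24, 3.13 and 1.31 CPM at 0 min. It had 5.67, 9.72 and 5.1 CPM at 15 min and 6.38, 7.27 and 4.98 CPM at 30 min. All 6 libraries with doxycycline were above all 3 without. The log2 change was 1.86 ± 0.38 (SE) at 15 min (edgeR adjusted p = 0.00265) and 1.72 ± 0.38 at 30 min (edgeR adjusted p = 0.0176). The 15 min call stood without any library in turn, and the 30 min call was lost without 0 min library 1 or 3 or 30 min library 1 or 2 (edgeR adjusted p 0.0666 to 0.156).

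Region bidir_96952 (chr3:16123968-16124567) lies 58.9 kb from Ythdf3, which encodes a reader of m6A in RNA. It went from 1.59, 2.24 and 3.15 CPM at 0 min to 5.67, 9.53 and 5.34 at 15 min and 6.56, 6.52 and 4.74 at 30 min, with no overlap between treated and untreated. The change was 1.60 ± 0.35 at 15 min (edgeR adjusted p = 0.00438) and 1.40 ± 0.35 at 30 min (edgeR adjusted p = 0.0368). The call at 15 min was lost without 15 min library 2 (edgeR adjusted p = 0.0568), and the call at 30 min without 0 min library 1 or 2 or any at 30 min (0.0637 to 0.235). The region at the Ythdf3 gene end had 30.8 CPM at 0 min and 31.7 at 15 min (log2 change 0.03 ± 0.18).

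Region bidir_121881 (chr5:83536589-83537188), 182 kb from Tecrl, was uneven at 0 min, with 0.354, 1.34 and 3.93 CPM. At 15 min it had 4.33, 5.91 and 6.8 CPM and at 30 min 4.74, 5.22 and 7.35 CPM, just above the highest untreated library. Its change was 1.70 ± 0.46 at 15 min (edgeR adjusted p = 0.0201) and 1.73 ± 0.46 at 30 min (edgeR adjusted p = 0.0477). Leaving out 0 min library 1 or 2 or 15 min library 2 lost the call at 15 min (edgeR adjusted p 0.0523 to 0.145). The 30 min call was lost without 0 min library 1 or 2, 15 min library 1 or any at 30 min (0.0511 to 0.29). It was also lost with DESeq2 size factors (0.0501) or a filter of 20 counts in 3 libraries (0.0524).

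Region bidir_69785 (chr16:63063110-63063709), 134 kb from Pros1, the gene of the anticoagulant protein S, had 1.24, 2.24 and 2.1 CPM at 0 min and 6.67, 3.62 and 6.56 at 15 min. Its values at 30 min were 5.1, 5.03 and 3.56 CPM, and the treated libraries were all higher. It rose by 1.61 ± 0.37 at 15 min (edgeR adjusted p = 0.00736), a call lost without 0 min library 1 (0.0656) or 15 min library 1 (0.053). The change of 1.33 ± 0.38 at 30 min was not called (edgeR adjusted p = 0.0716).

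Region bidir_132327 (chr6:70104001-70104600), 115 kb from the nearest gene by the rule (Gm46962), lies inside Igk, the immunoglobulin kappa locus, which is annotated as segments and so not counted as a gene. It had 1.59, 2.24 and 2.62 CPM at 0 min, 7.67, 8.01 and 3.64 at 15 min and 8.56, 3.91 and 3.32 at 30 min, with library 3 lowest at both treated times. The change at 15 min was 1.63 ± 0.40 (edgeR adjusted p = 0.0115), lost without 0 min library 1 or 15 min library 1 or 2 (0.061 to 0.0771). The change of 1.34 ± 0.41 at 30 min was not called (edgeR adjusted p = 0.0941). The 92 far regions inside Igk together held 0.0175%, 0.0198% and 0.0161% of reads at 0 min, 0.026%, 0.0271% and 0.0211% at 15 min and 0.0222%, 0.0216% and 0.022% at 30 min. Their treated libraries were all above the untreated ones (log2 change 0.47 at 15 min), which is given as a description, since the sum holds the named region and was chosen after its values were seen. The change at 15 min was 0.26 for the 40 far regions inside Igh, 0.28 for 53 inside Tcra, -0.18 for 8 inside Gm30124 and 0.11 for 299 inside pseudogenes.

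At 30 min 3 more regions were named by the rule. Region bidir_25354 (chr11:6777515-6778114), 57.8 kb from the lncRNA gene Gm11981 and 100 kb from Ramp3, a gene for a receptor-modifying protein, had 1.42, 2.24 and 2.62 CPM at 0 min. It had 5.5, 4.38 and 8.26 at 15 min and 7.11, 5.78 and 9.72 at 30 min, a change of 1.86 ± 0.35 at 30 min (edgeR adjusted p = 0.00638). The 30 min call was lost without 0 min library 1 (0.0701) or 30 min library 3 (0.051). The region was also called at 15 min, with a change of 1.54 ± 0.36 (edgeR adjusted p = 0.00851), lost without 0 min library 1 (0.0734).

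Region bidir_59446 (chr15:14118818-14119417) is the most remote of the named changes, 812 kb from the lncRNA gene Gm46517 and 943 kb from the cadherin gene Cdh6. It had 3.37, 2.24 and 2.62 CPM at 0 min, 7.5, 5.53 and 11.4 at 15 min and 7.65, 8.95 and 6.16 at 30 min, all treated values above the untreated. The change was 1.52 ± 0.32 at 15 min (edgeR adjusted p = 0.00384) and 1.45 ± 0.32 at 30 min (edgeR adjusted p = 0.019). The call at 15 min stood without any library in turn. The call at 30 min was lost without any one of the 0 min libraries or 30 min library 1 or 2 (0.0528 to 0.102).

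Region bidir_86765 (chr2:55209487-55210086), 91.5 kb from Galnt13, a glycosyltransferase gene, had 1.77, 3.36 and 3.15 CPM at 0 min, 5.67, 3.24 and 4.86 at 15 min and 9.11, 5.22 and 7.82 at 30 min. The 15 min values overlapped those of 0 min and those of 30 min did not. The change at 30 min was 1.45 ± 0.34 (edgeR adjusted p = 0.0259), lost without 0 min library 1 or 3 or 30 min library 1 or 3 (0.0574 to 0.196).

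Few far regions were called lower at 15 min, and the 6 named are all those of the 8 with a mean of 20 or more and no overlap. Region bidir_106571 (chr4:22596872-22597471) lies 104 kb from the lncRNA gene Gm30731 and 109 kb from Pou3f2, a transcription factor gene of the nervous system. It had 7.79, 12.8 and 16.5 CPM at 0 min, 4.67, 4.38 and 5.83 at 15 min and 6.01, 5.78 and 8.06 at 30 min. The 0 min libraries were uneven but all above those of 15 min. Its log2 change at 15 min was -1.3 ± 0.28 (edgeR adjusted p = 0.0043), and the call stood without any library in turn. At 30 min, where the range overlapped that of 0 min, the change of -0.89 ± 0.27 was not called (edgeR adjusted p = 0.0923).

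Region bidir_160845 (chr9:63879838-63880437) lies 55.8 kb from the lncRNA gene Gm36033 and 72.9 kb from Smad6, an inhibitor of BMP signalling. It had 4.96, 5.82 and 7.6 CPM at 0 min, 3, 3.43 and 1.7 at 15 min and 3.83, 4.85 and 6.4 at 30 min, so that the 30 min values overlapped those of 0 min. Its log2 change at 15 min was -1.12 ± 0.33 (edgeR adjusted p = 0.0368), lost without 0 min library 2 or 3 or any at 15 min (0.0525 to 0.136). With scaling from gene ends the change was -0.95 (edgeR adjusted p = 0.0835), and with only the groups compared the adjusted p was 0.0541.

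Region bidir_22601 (chr10:99340988-99341587) lies 70.4 kb from the lncRNA gene Gm34921 and 73.8 kb from Dusp6, a phosphatase of ERK kinases. It had 15.4, 21.7 and 20.7 CPM at 0 min, 12.8, 10.9 and 8.02 at 15 min and 14.6, 13.2 and 10.4 at 30 min. Both treated times were below all untreated libraries. The change was -0.84 ± 0.22 at 15 min (edgeR adjusted p = 0.016) and -0.58 ± 0.21 at 30 min (edgeR adjusted p = 0.172). Without 0 min library 2 or 3 the 15 min call was lost (0.0524 and 0.0559), as it was with scaling from gene ends (0.0613).

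Region bidir_78949 (chr19:6646973-6647572), 68.7 kb from the lncRNA gene Gm32245 and 104 kb from Slc22a12, a urate transporter gene, had 13.1, 17.2 and 13.1 CPM at 0 min. At 15 min it had 5.67, 6.29 and 9.72 and at 30 min 11.3, 8.95 and 11.4. All treated libraries were below all at 0 min, and the ranges of 15 and 30 min overlapped. The change at 15 min was -1.03 ± 0.24 (edgeR adjusted p = 0.0076), lost without 15 min library 1 (0.0655). The change of -0.46 ± 0.23 at 30 min was not called (edgeR adjusted p = 0.339). A region nearby, bidir_78954, stood at 148, 152 and 167 CPM at 0 min and 169, 177 and 194 at 15 min, a change of 0.21 ± 0.10 that was not called.

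The remaining named falls were smaller. Region bidir_35553 (chr12:23188657-23189256), 87.1 kb from the transcribed pseudogene Gm20472, had 28, 28 and 40.6 CPM at 0 min, 16.7, 18.3 and 24.5 at 15 min and 21.3, 27 and 29.6 at 30 min. It changed by -0.70 ± 0.19 at 15 min (edgeR adjusted p = 0.0213), lost without 0 min library 3 or 15 min library 1 or 2 (0.0746 to 0.136) and with scaling from gene ends (0.059). Region bidir_71655 (chr17:29769095-29769694), 52.4 kb from Ccdc167, had 23.7, 32.2 and 22.5 CPM at 0 min, 17.2, 19.3 and 14.8 at 15 min and 22.4, 24 and 19.2 at 30 min. All 3 libraries of 15 min lay below those of 0 min. Its change of -0.61 ± 0.18 (edgeR adjusted p = 0.0374) was lost without 0 min library 1 or 2, 15 min library 1 or 3 (0.0506 to 0.171), with scaling from gene ends (0.153) and with only the groups compared (0.0621).

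The regions called lower at 30 min were a pair of overlapping windows near the start of chromosome 4, 114 kb from the vomeronasal receptor gene Vmn1r2. Region bidir_105493 (chr4:3057369-3057968) had 108, 117 and 99.6 CPM at 0 min, 113, 126 and 85.3 at 15 min and 68.7, 76.8 and 64.5 at 30 min. The 30 min libraries were below all others. The change was -0.63 ± 0.13 against 0 min (edgeR adjusted p = 0.0117) and -0.63 ± 0.13 against 15 min (edgeR adjusted p = 0.0155). The first call was lost without 0 min library 1 or 30 min library 1 or 3 (0.0533 to 0.0851) and with scaling from gene ends (0.0591). The second was lost without 15 min library 1 or 2 or any at 30 min (0.0552 to 0.159).

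Its neighbour bidir_105494 (chr4:3057953-3058552), whose window overlaps it at the edge, changed by -0.62 ± 0.16 at 30 min (edgeR adjusted p = 0.0483). That call was lost in 6 of 9 fits that left out a library, those without 0 min library 1 or 2, 15 min library 1 or any at 30 min (edgeR adjusted p 0.0543 to 0.221), and with scaling from gene ends (0.135) or a filter of 20 counts in 3 libraries (0.0575).

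From 15 to 30 min the region called higher was bidir_79618 (chr19:14670725-14671324), 72.8 kb from Tle4, a corepressor gene of the Groucho family. It had 11, 11.9 and 12.1 CPM at 0 min, 10, 9.15 and 6.07 at 15 min and 16.6, 16.4 and 15.4 at 30 min. The 3 times did not overlap, with 15 min lowest and 30 min highest. Its change from 15 to 30 min was 0.92 ± 0.21 (edgeR adjusted p = 0.0342), lost without any library of 15 or 30 min (0.0601 to 0.161) and with scaling from gene ends (0.0857). Neither time was called against 0 min. The region at the Tle4 gene end had 66.8, 69.3 and 66.5 CPM at the 3 times.

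**Figure D5:**
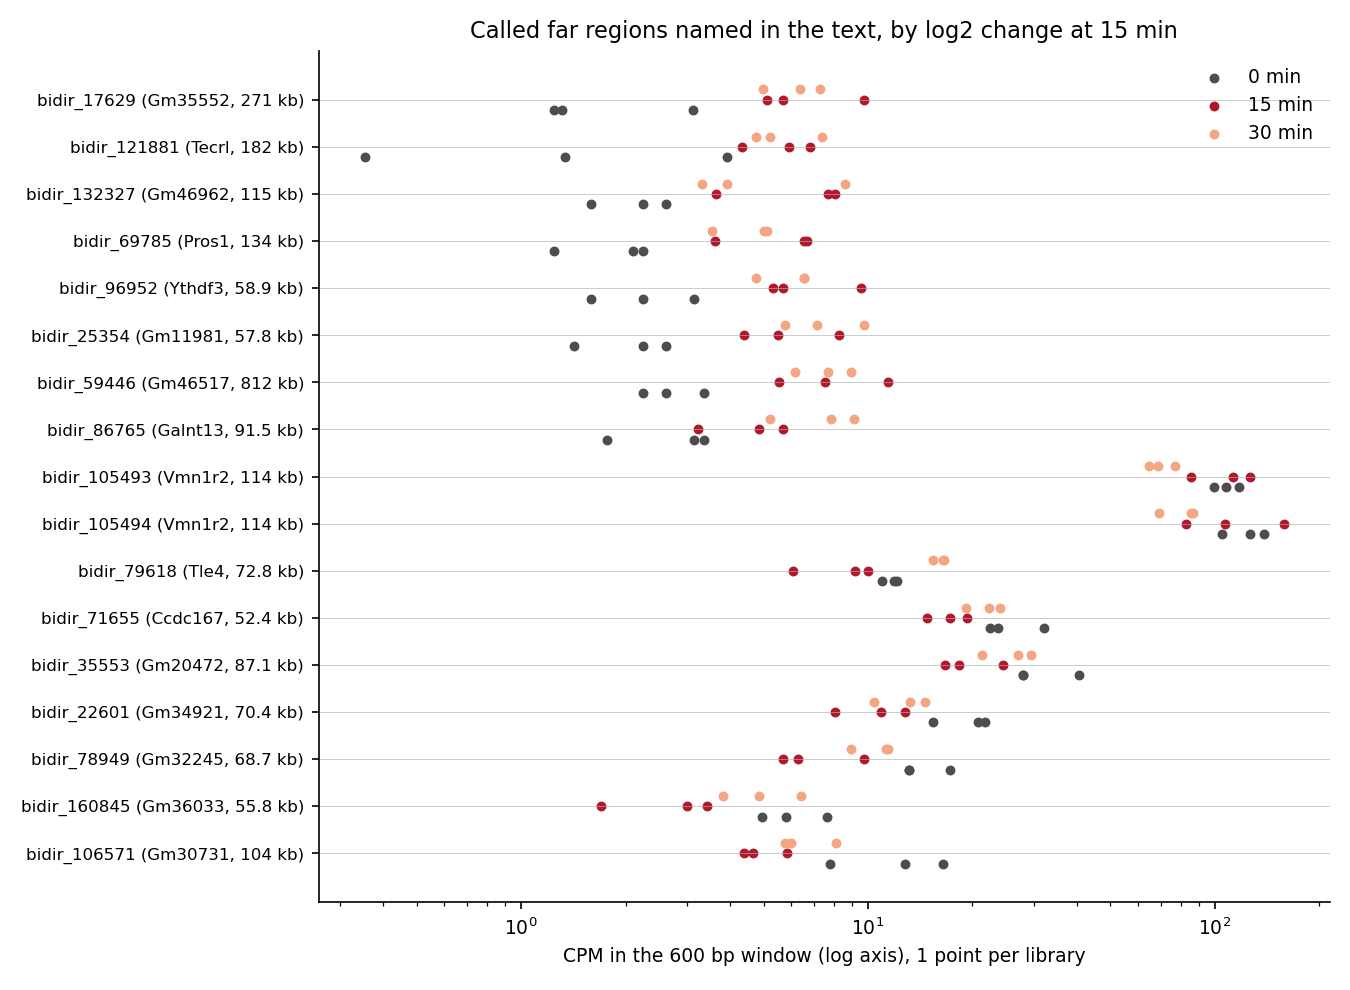
CPM (x, log axis) of 17 called far regions in each library, 1 point per library, coloured by time and ordered by the log2 change at 15 min. Labels give the region, the nearest gene and its distance. In the upper 8 every 30 min library lies above every 0 min library, in the Vmn1r2 pair 30 min lies below 0 min, and in the lowest 6 every 15 min library lies below every 0 min library.

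The far regions with the most reads changed little, with 1 exception. Region bidir_7342 (chr1:95830753-95831352), 115 kb from the lncRNA gene 4930598F16Rik and 163 kb from St8sia4, a polysialic acid synthase gene, had 177, 256 and 221 CPM at 0 min. It had 379, 487 and 332 CPM at 15 min and 362, 317 and 335 CPM at 30 min, all above 0 min. It rose by 0.87 ± 0.13 at 15 min (edgeR adjusted p = 8.56e-05) and by 0.63 ± 0.13 at 30 min (edgeR adjusted p = 0.00888). The call at 15 min stood without any library in turn, and that at 30 min was lost without 0 min library 1 (0.0851) or 30 min library 1 (0.0617).

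The far region of highest mean count, bidir_112508, is called at a width of only 104 bp and lies 64.7 kb from the lncRNA gene LOC115489968. Its CPM was 216, 362 and 523 at 0 min, 48.5, 437 and 388 at 15 min and 321, 340 and 426 at 30 min, so 15 min library 1 stood far below the rest. The change at 15 min was -0.34 ± 0.38 (edgeR adjusted p = 0.645). The other 8 of the top 10, between 791 and 1263 mean counts, had log2 changes of 0.05 to 0.27 at 15 min and were not called. They include bidir_25840, 86.6 kb from Spred2, an inhibitor of the Ras pathway, at 261, 235 and 246 CPM at 0 min and 291, 240 and 282 at 15 min. Another, bidir_106090, lies inside the pseudogene Gm11847.

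Among the 5 widest far regions, bidir_3805 (chr1:57476672-57477271) was called at both times. It is 4694 bp wide in the list of variable width and lies 59 kb from Maip1, a gene for a mitochondrial protein. It had 26.7, 34.9 and 33.3 CPM at 0 min, 58.3, 65.2 and 53.2 at 15 min and 48.1, 53.1 and 58.5 at 30 min. All treated libraries were above all at 0 min, and the ranges of 15 and 30 min overlapped. The log2 change was 0.90 ± 0.14 at 15 min (edgeR adjusted p = 0.00023) and 0.75 ± 0.14 at 30 min (edgeR adjusted p = 0.00654). The first call stood without any library in turn, and the second was lost without 0 min library 1 (0.0738) or 30 min library 3 (0.0562). The region at the Maip1 gene end had 22.7, 28.6 and 31 CPM at the 3 times, a change of 0.34 ± 0.17 at 15 min (edgeR adjusted p = 0.239). The other 4, near Gm39597, Pudp, Gadd45g and Gm34542, were not called.

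The 5 regions farthest from a gene lie together on chromosome 3, 1687 to 1723 kb away. The farthest, bidir_98545 (chr3:43557030-43557629), had 9.74, 11.4 and 11.8 CPM at 0 min, 12.8, 11.2 and 11.7 at 15 min and 10, 8.01 and 11.1 at 30 min. Its neighbour bidir_98546 had 15.9, 19.7 and 16.8 CPM at 0 min and 18, 23.3 and 17.5 at 15 min. Neither was called (log2 change 0.13 ± 0.21 and 0.17 ± 0.18 at 15 min, edgeR adjusted p = 0.77 and 0.629). The other 3 had a mean under 1 count.

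Joined where neighbours lay within 12 kb, far regions formed 5006 runs, of which 643 held a single far region, 993 held 5 or more and 158 held 10 or more. The largest, 39 regions over 80.5 kb of chromosome 2 near H2al2a, a histone gene, had 13.6, 10.1 and 8.39 CPM in all at 0 min and 17.2, 15.3 and 8.02 at 15 min, which overlapped. The run of 34 regions on chromosome 12 near 4930404H11Rik had 21.1, 19.7 and 23.1 CPM at 0 min, 33.3, 33 and 30.9 at 15 min and 31.7, 30.6 and 31.5 at 30 min. There the treated libraries were all above the untreated, and 2 of its 4 tested regions were called higher at 15 min, where 4.29% of all tested regions were. Both runs are given for their size, and 4 tested regions are too few to compare with that share. Reads in overlapping windows of a run may have been counted more than once or left out, since the counting settings are not given.

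Far regions were grouped by their nearest gene with 4 lists, which assigns no target. Of 71 far regions nearest to pluripotency genes (9 genes, among them Klf5, Sall1, Esrrb, Nr5a2 and Tfcp2l1), 18 were tested and 0 were called at any contrast by edgeR's test and 0 by DESeq2's, with 1 at an unadjusted p under 0.05 at 15 min, 1 at 30 min and 0 between them. Of all tested regions 8.25% were called either way at 15 min and 1.74% at 30 min, so a count of 0 of 18 says little. Their median log2 change was 0.05 at 15 min, where all tested far regions had 0.33 and all tested regions 0.02. Region bidir_57460, 53 kb from Klf5, a transcription factor of self-renewal, had 20.9, 24.8 and 25.2 CPM at 0 min, 20, 19.3 and 20.9 at 15 min and 25.1, 26.3 and 22.3 at 30 min. Region bidir_153507, 73.7 kb from Sall1, had 9.74, 10.7 and 17.6 CPM at 0 min and 20.5, 18.3 and 14.3 at 15 min, which overlapped (log2 change 0.52 ± 0.22, edgeR adjusted p = 0.148).

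Of 131 far regions nearest to developmental transcription factor genes, 30 were tested, 1 was called higher at 15 min and 0 lower, with a median of 0.29, where 4.29% of all tested regions were called higher and 3.96% lower. A count of 1 of 30 cannot be told from those shares. The called region was bidir_50693 (chr13:116071838-116072437), 226 kb from Isl1, a LIM homeodomain gene. It had 11, 12.5 and 13.6 CPM at 0 min, 17.8, 19.6 and 21.4 at 15 min and 18.6, 18.1 and 20.6 at 30 min. The treated libraries were all above the untreated, and the 30 min range lay within that of 15 min. The change was 0.67 ± 0.19 at 15 min (edgeR adjusted p = 0.0255) and 0.63 ± 0.19 at 30 min (edgeR adjusted p = 0.0809). The call at 15 min was lost without 0 min library 1 or 2 or 15 min library 2 or 3 (0.0525 to 0.14), and with no filter on low counts (0.0784). The region at the Isl1 gene end had 13.9, 12.7 and 11 CPM at the 3 times. Near Tfap2a (bidir_44483) and Pou3f4 (bidir_171129) the changes at 15 min were 0.19 ± 0.21 and 0.03 ± 0.26.

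Adhesion and axon guidance genes, many of them long genes at the edge of deserts, were nearest to 595 far regions. Of these 131 were tested, 6 were called higher at 15 min and 0 lower, with a median of 0.38, where 4.29% of all tested regions and 5.04% of the far ones were called higher. A count of 6 is near those shares. DESeq2's test called 3. At 30 min 0 were called by edgeR or DESeq2, 14 had an unadjusted p under 0.05 and the median was 0.25. The best covered, bidir_134783, 230 kb from the contactin gene Cntn6, had 56.7, 59.8 and 55.1 CPM at 0 min and 61.3, 58.7 and 64.1 at 15 min (log2 change 0.10 ± 0.12). Region bidir_121803, 1171 kb from the latrophilin gene Adgrl3, had 27.8, 24.4 and 30.2 CPM at 0 min and 28.8, 29.7 and 34.7 at 15 min. Genes of signalling pathways were nearest to 30 far regions, of which 2 were tested and 0 called by edgeR or DESeq2 (0 at an unadjusted p under 0.05 at 15 min, 1 at 30 min). The best covered, bidir_72430, 249 kb from Bambi, a pseudoreceptor of the TGF-beta family, had 10.1, 5.82 and 9.44 CPM at 0 min and 6.17, 8.77 and 9.47 at 15 min.

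The nearest genes were looked at through their gene ends, which gives no evidence of a target. Of 195 far regions called higher at 15 min, 82 had a region at the end of their nearest gene. These came to 44 distinct tested end regions, of which 1 was called higher and 0 lower, with a median log2 change of -0.04. Of all tested gene-end regions 1.81% were called higher and 8.04% lower, and of all tested regions 4.29% and 3.96%. Over the 324 tested ends nearest to any tested far region the median was -0.11, with 6 called higher and 7 lower.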

How the data were processed

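PRO-seq counts from 9 libraries of mouse embryonic stem cells were used, 3 each at 0, 15 and 30 min of doxycycline. The authors deposited raw read counts per region and 2 region lists, whose other values are starts and ends on mm10. Per the submitters' processing notes HISAT2, featureCounts and DESeq2 1.26.0 were used. Their settings and the strand counted are not given in the sources used here. Tfit and muMerge appear in the deposited file names.

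Distances used 35099 of 49943 RefSeq genes (GRCm38.p6) of the types protein coding, lncRNA and transcribed pseudogene. Only 1 far window matched a sequence in the tables, and no genome was used here. Counts were fitted in R 4.3.3 with edgeR 4.0.16 (default filter, TMM factors, full library sizes, time as a factor, all 9 libraries), with Benjamini-Hochberg adjustment over 54299 tested regions and a threshold of 0.05. The SE is the log2 change divided by the square root of F. CPM uses the same factors. A count of 3 equals 0.5 to 0.787 CPM. Shares and ratios took all regions, 1 value per library, and exact permutation tests of F. Alternatives used DESeq2 1.42.0, other scalings, filters, distance limits and gene types, non-overlapping windows, the replicate block and each library left out.

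Named regions were, per contrast, the 6 higher and 6 lower of largest change (mean of at least 20 counts, no overlap of groups), the 10 of highest mean, the 5 farthest, the 5 widest, the 3 densest runs and the 3 best covered per gene list. A few items that the rule or the marker lists pick are not reported here. The members, lists and rule were chosen with earlier results of these data known. The splits by distance, chromosome and width and the Igk sum were added after seeing the data. In the first run library sizes were summed after the filter. They were changed to full sizes after its calls were seen, to match an earlier analysis of the series. Replicate numbers were not taken as pairs: same-numbered libraries correlated at -0.048 to 0.18 in their deviations from group means.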

Additional observations from a re-analysis of the deposited data

Results flagged for a closer look

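From 15 to 30 min 1 far region was called higher, bidir_79618 near Tle4, and 1 was called lower, bidir_105493 near Vmn1r2. Both are flagged because the contrast of 30 against 15 min is itself the test of the difference between the times (edgeR adjusted p = 0.0342 and 0.0155). Each is 0.0258% of the tested far regions. Of all tested regions 0.214% were called higher and 0.49% lower, so far regions had smaller shares of such calls. The call near Tle4 was lost in 6 of 6 fits without a library of 15 or 30 min and that near Vmn1r2 in 5 of 6, and the cause was not tested.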

How the results depend on the processing

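The library sizes were the only setting of the main fit changed after results were seen. With sizes summed after the filter, as first run, the far calls were 184 higher and 9 lower at 15 min, 47 and 2 at 30 min, and 1 and 1 from 15 to 30 min. For the 11 main results 134 of 204 alternatives kept the call or stayed within 1.5 times the count. None reversed. The rest follow, and where no reason is given the cause was not tested.

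Far calls higher at 15 min (195) were 405 with TMM from gene ends, 115 with only the 2 groups compared, 95 by DESeq2's Wald test, 99 with a limit of 100 kb, 320 with 25 kb, 111 with every annotated gene, and 57 to 277 with a library left out. Calls lower (8) were 3, 5, 1 (100 kb), 33 (25 kb), 4 (every gene) and 2 to 9. At 30 min calls higher (47) were 85 with TMM from gene ends, 30 by DESeq2, 20 (100 kb), 89 (25 kb), 24 (every gene) and 2 to 73. Calls lower (2) were 0 with TMM from gene ends, 1 with 20 counts in 3 libraries, 0 among windows that overlap no other, 8 (25 kb), 0 (every gene) and 0 to 2. From 15 to 30 min the call higher (1) was 0 with TMM from gene ends and 100 kb, and 0 to 1 with a library left out. The call lower (1) was 3 with no filter, 2 with the replicate block, 0 among windows that overlap no other, 2 (25 kb), 0 (every gene) and 0 to 6. The distance limits and gene types change the number of members.

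The ratio to near intergenic regions (0.115) was 0.138 without the 1% of regions of highest mean (exact permutation p = 0.0357) and 0.0828 to 0.139 with a library left out. The ratio to gene ends (0.337) was 0.258 to 0.417 with a library left out, and its replicate block gave an exact p of 0.0556, where 0.0278 is the smallest possible. Of the 21 ratios within bins 0 to 15 passed with a library left out. The replicate block gave 204 and 8 far calls at 15 min, 56 and 2 at 30 min, and 1 and 2 from 15 to 30 min. It lost no call at the named regions. The X over autosome ratio (-0.0168) was -0.0461 to 0.00713 with a library left out, reversed without 15 min library 1. The 30 calls at regions the naming rule picks were lost in 96 of 564 alternatives and reversed in none. Depth leaves 77.3% of far regions untested.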
